A study of Mus musculus with 20 samples.

Results

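The mitochondrial fatty acid oxidation enzymes described here are the products of 10 genes that carry long-chain acyl groups into the matrix and break them down: Cpt2, Slc25a20, Acadvl, Acadl, Acadm, Acads, Hadha, Hadhb, Hadh and Acaa2. They were chosen by name and by the role of their products, with no measured value in the rule, and are 10 of the 18193 genes that had a probe set of that symbol alone on the array. Together they had 19 of 45037 probe sets, and all 19 were among the 22518 brighter probe sets that were tested. RNA came from the left ventricles of 20 mice, all male C57BL/6J, with 1 array per mouse and 4 mice in each of 5 groups. Control mice ate standard chow without drug. The other groups ate the same chow mixed with powdered tablets of pitavastatin calcium (4.5 mg/kg/day), pravastatin sodium (21.0 mg/kg/day), rosuvastatin calcium (10.9 mg/kg/day) or atorvastatin calcium hydrate (11.4 mg/kg/day) for 4 weeks, after arrival at 6 weeks of age and 2 weeks of acclimation. All mice were normal animals of 1 sex and 1 strain, the doses were calculated from food intake, and they differed among the drugs. Statins inhibit HMG-CoA reductase, the enzyme that sets the pace of cholesterol synthesis, and the study asked how 4 of them affect gene expression in the normal mouse heart.

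The adult heart draws most of its energy from fatty acids. Long-chain acyl groups cross the inner mitochondrial membrane as carnitine esters through the carrier encoded by Slc25a20, and Cpt2 returns them to coenzyme A inside. Each round of beta oxidation then removes an acetyl unit in 4 steps: an acyl-CoA dehydrogenase chosen by chain length (Acadvl, Acadl, Acadm or Acads) makes a double bond, a hydratase adds water, a hydroxyacyl-CoA dehydrogenase oxidises the product, and a thiolase releases acetyl-CoA. For long chains the last 3 steps are done by the trifunctional protein, a complex of the subunits Hadha and Hadhb, and for shorter chains Hadh and Acaa2 encode the dehydrogenase and the thiolase. Many of these genes are known targets of the nuclear receptor PPAR alpha.

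Values are log2 of the deposited signal plus 16, and each gene is given by the probe set with its highest mean unless another is named. Levels of different probe sets are not comparable, because probes differ in how strongly they bind. Every array had the same trimmed mean signal of 500.0, whereas the median signal differed, with rosuvastatin 3 the dimmest array (41.7) and atorvastatin 2 the brightest (144). Of the 4 listed ventricular markers, Myl2 and Myl3 were bright (median signal 43054 for Myl2 and 48618 for Myl3). Irx4 and Hey2, the others on that list, also passed the filter on low values, and their signals are not given here. The atrial genes Myl7 and Sln were low (median signal 24.2 and 46.2), although Myl7 reached 1259 on 1 array. Among the other listed atrial markers, Myl4 had a median signal of 497 (up to 3382) and Nppa one of 7353 (up to 12103). Of the 6 listed atrial markers 3 passed the filter on low values. The log2 of the summed signal of all 6 was highest on pitavastatin 2 (14.15), with rosuvastatin 3 next (13.82). Of the listed markers that had a probe set of that symbol alone, 0 of 5 for adipocytes, 1 of 7 for skeletal muscle and 1 of 3 for red cells passed the filter on low values.

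No oxidation enzyme differed from control in any statin group after adjustment for multiple testing. The 10 genes lay close to the control level in each group. In pitavastatin mice 7 lay higher and 3 lower (median log2 fold change 0.08, from -0.13 for Hadhb to 0.14 for Acadvl). In pravastatin mice all 10 lay lower (median -0.08, from -0.29 for Acads to -0.004 for Hadhb), as they did in rosuvastatin mice (median -0.11, from -0.33 for Hadhb to -0.01 for Acadvl) and in atorvastatin mice (median -0.10, from -0.26 for Acads to -0.06 for Hadha). The 4 comparisons share the same control mice, so their directions are not independent of each other.

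Those counts stand against a background in which 51%, 55%, 54.1% and 56.1% of all tested probe sets lay below control in pitavastatin, pravastatin, rosuvastatin and atorvastatin mice, with medians of -0.003, -0.02, -0.02 and -0.03. The direction depended on the choice of probe sets and on how the arrays were scaled. With each gene taken as the mean of all its probe sets, 6, 9, 10 and 9 of the 10 genes lay lower in that order, and the members' median in pitavastatin mice was -0.01. With quantile normalization 5, 4, 7 and 7 lay lower. With each array centred on its median, 3, 3, 0 and 6 lay lower, and in rosuvastatin mice the median of all tested probe sets then moved to 0.36. Relative to the median of all tested probe sets, the members' median was 0.09, -0.06, -0.09 and -0.07 in the deposited scaling. Centring shifts all probe sets of an array alike and so cannot change these 4 values. With quantile normalization they were -0.002, -0.005, -0.07 and -0.02. For the mean of the 4 statins 7 lay lower with quantile normalization and 1 with centring. Single arrays also moved the counts: without atorvastatin 1, 4 of 10 genes lay lower in atorvastatin mice, and without rosuvastatin 3, 6 of 10 lay lower in rosuvastatin mice. Without control 2, 7 of 10 lay lower in rosuvastatin mice and 6 of 10 for the mean of the 4 statins.

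Limma with Benjamini-Hochberg adjustment over all tested probe sets called 0 of the 19 probe sets in each comparison with control, and 0% of all tested probe sets were called in any of them. The smallest adjusted p of the 19 was 0.452, with rosuvastatin, and it was 0.9999, 0.992 and 0.964 in pitavastatin, pravastatin and atorvastatin mice. At an unadjusted p under 0.05, 1 of 19 passed with pravastatin (background 3.93%) and 1 with rosuvastatin (background 11%), and 0 of 19 with pitavastatin (background 1.93%) or atorvastatin (background 4.57%). The F test over the 5 groups called none of the 19 (background 0.00444%), with adjusted p from 0.787 to 0.992, and at an unadjusted p under 0.05 none passed either (background 6.24%). For the mean of the 4 statins against control, all 10 genes lay lower (median -0.06, where 55.2% of tested probe sets lay lower), none was called (0%), and 0 of 19 passed at an unadjusted p under 0.05 (background 3.05%). For none of the 19 probe sets did the 4 mice of a statin group all lie above, or all below, the 4 control mice, which 0.924% (higher) and 0.764% (lower) of tested probe sets did in pitavastatin, 1.92% and 1.03% did with pravastatin, 1.87% and 2.66% with rosuvastatin, and 0.799% and 0.573% with atorvastatin. The 95% intervals of the 10 genes reached 0.22 to 0.44 to either side on the log2 scale, or 1.17- to 1.36-fold, so differences of that size could not be told from the spread between mice. In whole tissue, fewer cells of a type and less RNA per cell cannot be told apart.

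**Figure D1:**
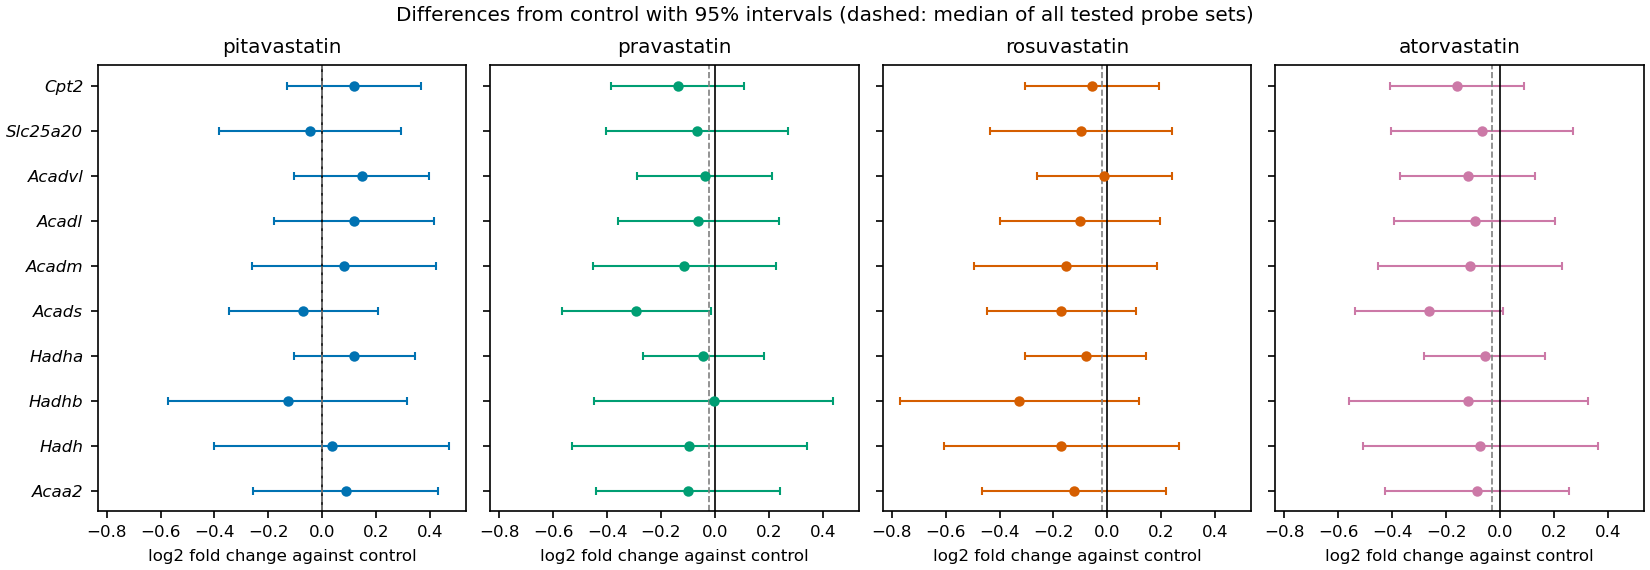
Log2 fold change against control (x axis) of the 10 enzymes (y axis) in each statin group, with points for the estimate and bars for the 95% interval from limma. The interval of Acads in pravastatin mice (-0.57 to -0.02) is the only one that leaves out 0, and its adjusted p is 0.992.

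The genes of the carnitine step had group means close to control, and for Slc25a20 the mice of 3 statin groups lay outside the narrow control range on both sides. Cpt2 read 12.26, 12.75, 12.69 and 12.48 in control mice, 12.54, 12.76, 12.76 and 12.59 with pitavastatin, 12.47, 12.32, 12.48 and 12.36 with pravastatin, 12.30, 12.67, 12.59 and 12.39 with rosuvastatin, and 12.18, 12.24, 12.45 and 12.68 with atorvastatin. Control mouse 1 was the lowest of its group, and every statin group overlapped the controls. The log2 fold changes were 0.12, -0.14, -0.06 and -0.16 (SE 0.12 each) with pitavastatin, pravastatin, rosuvastatin and atorvastatin. The carrier gene Slc25a20 read 14.31, 14.21, 14.32 and 14.33 in control mice and 14.27, 14.14, 14.27 and 14.31 with pitavastatin, so these groups were even. It read 14.02, 14.12, 14.29 and 14.47 with pravastatin, 14.11, 14.52, 13.80 and 14.34 with rosuvastatin, and 13.78, 14.51, 14.02 and 14.59 with atorvastatin. The fold changes were between -0.10 and -0.05 (SE 0.16).

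The acyl-CoA dehydrogenases differ in chain length, and the short-chain member Acads had the lowest value relative to control in pravastatin and in atorvastatin mice. Acads read 10.02, 10.45, 10.66 and 10.11 in control mice, 10.19, 10.25, 10.35 and 10.17 with pitavastatin, 10.07, 10.08, 9.87 and 10.05 with pravastatin, 10.20, 9.97, 10.33 and 10.06 with rosuvastatin, and 9.98, 10.39, 9.88 and 9.95 with atorvastatin. The controls fell into 2 low and 2 high mice, and 3 of the 4 pravastatin mice lay above the lowest control. The fold change was -0.29 with pravastatin (SE 0.13, 95% interval -0.57 to -0.02, limma unadjusted p = 0.0395, adjusted p = 0.992), -0.26 with atorvastatin (unadjusted p = 0.0606, adjusted p = 0.964), -0.17 with rosuvastatin and -0.07 with pitavastatin. The very long-chain gene Acadvl read 13.35, 13.79, 13.85 and 13.56 in control mice, where mouse 1 was again lowest. It read 13.76, 13.81, 13.83 and 13.72 with pitavastatin, the narrowest group (SD 0.05), and its fold changes were 0.14, -0.04, -0.01 and -0.12 (SE 0.12) with pitavastatin, pravastatin, rosuvastatin and atorvastatin.

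The medium-chain gene Acadm, the enzyme most often deficient in human disorders of this pathway, was even in control and pitavastatin mice and uneven in the last groups. It read 14.45, 14.61, 14.56 and 14.51 in control mice, 14.53, 14.72, 14.56 and 14.63 with pitavastatin, 14.30, 14.40, 14.43 and 14.55 with pravastatin, 14.28, 14.81, 13.89 and 14.53 with rosuvastatin, and 14.07, 14.61, 14.19 and 14.81 with atorvastatin. Rosuvastatin 3 was the lowest of all 20 mice. Above every control were rosuvastatin 2, atorvastatin 4, pitavastatin 2, pitavastatin 4 and, by a narrow margin, atorvastatin 2. The fold changes were 0.08, -0.11, -0.15 and -0.11 (SE 0.16). The long-chain gene Acadl was lowest on atorvastatin 1 and, like Acadm, highest on rosuvastatin 2, with 13.76, 14.30, 13.59 and 13.93 with rosuvastatin and 13.52, 13.99, 13.82 and 14.28 with atorvastatin against 13.87 to 14.12 in control mice, and fold changes of 0.12, -0.06, -0.10 and -0.09 (SE 0.14).

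Receptors of the PPAR family bind the sequence AGGTCA and repeats of it, so the start regions of the genes were searched for it. The RefSeq windows (assembly GRCm38.p6, 250 bases before to 50 after the start site) of 9 of the 10 genes were searched on both strands, and the window of Acaa2 was not used here. AGGTCA was in the windows of 2 of 9 genes, Acadm and Acadvl, and in 16.3% of all 32851 windows. The element DR1, a direct repeat of that half-site with 1 base between its copies, was in none of the 9 and in 0.04% of all windows. A match is a description of the letters and not a binding site. The 250 bases before the start sites of these 2 genes follow 5′ to 3′, from the minus strand at chr3:153944644-153944893 for Acadm and from the minus strand at chr11:70015429-70015678 for Acadvl, with the half-site on either strand in capitals.

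Acadm: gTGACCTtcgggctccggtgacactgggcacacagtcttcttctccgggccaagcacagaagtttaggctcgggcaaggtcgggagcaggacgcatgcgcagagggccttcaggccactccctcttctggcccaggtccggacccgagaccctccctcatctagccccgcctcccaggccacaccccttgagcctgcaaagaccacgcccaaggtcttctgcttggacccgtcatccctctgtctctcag

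Acadvl: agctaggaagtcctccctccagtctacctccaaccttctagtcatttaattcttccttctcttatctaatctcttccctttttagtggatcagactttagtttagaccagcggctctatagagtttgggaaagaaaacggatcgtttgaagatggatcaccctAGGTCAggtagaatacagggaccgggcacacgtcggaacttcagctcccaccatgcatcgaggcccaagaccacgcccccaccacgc

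The subunit genes of the trifunctional protein, Hadha and Hadhb, lie head to head on chromosome 5 and share a start region. Their RefSeq start sites are 273 bases apart on opposite strands, and their windows overlap by 228 bases. The stretches before each start site are shown because the pair has 1 common region. Hadha is given from the minus strand at chr5:30154981-30155230 and Hadhb from the plus strand at chr5:30155003-30155252, 5′ to 3′, with the GC box GGGCGG on either strand in capitals.

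Hadha: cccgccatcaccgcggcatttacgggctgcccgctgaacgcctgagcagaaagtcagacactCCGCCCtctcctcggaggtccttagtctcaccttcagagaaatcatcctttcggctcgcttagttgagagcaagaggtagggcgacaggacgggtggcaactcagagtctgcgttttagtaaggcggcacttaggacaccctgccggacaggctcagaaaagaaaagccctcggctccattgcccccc

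Hadhb: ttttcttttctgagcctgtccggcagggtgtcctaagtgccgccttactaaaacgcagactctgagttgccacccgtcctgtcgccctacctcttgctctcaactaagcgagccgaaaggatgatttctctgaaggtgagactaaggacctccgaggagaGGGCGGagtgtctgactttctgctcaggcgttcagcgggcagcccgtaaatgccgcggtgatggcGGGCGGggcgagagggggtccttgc

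The single GC box in the Hadha stretch and the first of the 2 in the Hadhb stretch are the same bases read from opposite strands. GC boxes were in the windows of 7 of 9 genes and in 35.7% of all windows. TATAAA was in 0 of 9 and in 13.6% of all windows, and CCAAT was in the window of Hadh alone and in 37.4% of all windows.

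Hadha, the subunit with the hydratase and the dehydrogenase, lay near control throughout. It read 12.18, 12.61, 12.49 and 12.16 in control mice and its fold changes were 0.12, -0.04, -0.08 and -0.06 (SE 0.11) with pitavastatin, pravastatin, rosuvastatin and atorvastatin. Hadhb, the thiolase subunit, read 15.26, 14.57, 14.52 and 15.15 in control mice on its brightest probe set, with mice 1 and 4 high where Hadha was low. It read 14.73, 14.91, 14.61 and 14.74 with pitavastatin, 14.71, 14.97, 14.75 and 15.06 with pravastatin, 14.52, 14.70, 14.08 and 14.89 with rosuvastatin, and 14.56, 15.31, 14.24 and 14.92 with atorvastatin. The fold change with rosuvastatin was -0.33 (SE 0.21), and the others were -0.13, -0.004 and -0.12. This probe set, whose suffix x marks probes that may bind other transcripts, had a Pearson r of -0.08 with Hadha over the 20 arrays. Another Hadhb probe set without that suffix read 14.05, 14.27, 14.27 and 14.18 in control mice and had an r of 0.72 with Hadha, so its readings followed those of Hadha more closely than the brightest probe set's did. Its fold changes were 0.10, -0.05, -0.10 and -0.10 with pitavastatin, pravastatin, rosuvastatin and atorvastatin. The dimmest Hadhb probe set, also without the suffix, had an r of 0.27 with Hadha and 0.74 with the brightest. On that dimmest probe set the fold change with rosuvastatin was -0.75.

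Hadh, whose brightest probe set also has the suffix x, encodes an enzyme that oxidises short hydroxyacyl chains. It was even in control mice and had the widest spread with rosuvastatin and atorvastatin. It read 14.93, 14.90, 14.89 and 14.99 in control mice, 14.95, 15.01, 14.85 and 15.04 with pitavastatin, 14.58, 14.78, 14.87 and 15.11 with pravastatin, 14.56, 15.28, 14.23 and 14.95 with rosuvastatin, and 14.34, 15.17, 14.54 and 15.38 with atorvastatin. The SD was 0.046 in control, 0.455 in rosuvastatin and 0.495 in atorvastatin mice, and the fold changes were 0.03, -0.09, -0.17 and -0.07 (SE 0.21). The thiolase Acaa2 read 14.67, 14.85, 14.84 and 14.74 in control mice, 14.83, 14.91, 14.83 and 14.87 with pitavastatin, 14.55, 14.61, 14.71 and 14.83 with pravastatin, 14.55, 15.07, 14.22 and 14.76 with rosuvastatin, and 14.30, 14.84, 14.48 and 15.15 with atorvastatin. For both genes rosuvastatin 3 and atorvastatin 1 were lowest, and atorvastatin 4 and rosuvastatin 2 highest. Atorvastatin 2 and pravastatin 4 lay above every control for Hadh but within the control range for Acaa2. The fold changes of Acaa2 were 0.09, -0.10, -0.12 and -0.09 (SE 0.16).

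**Figure D2:**
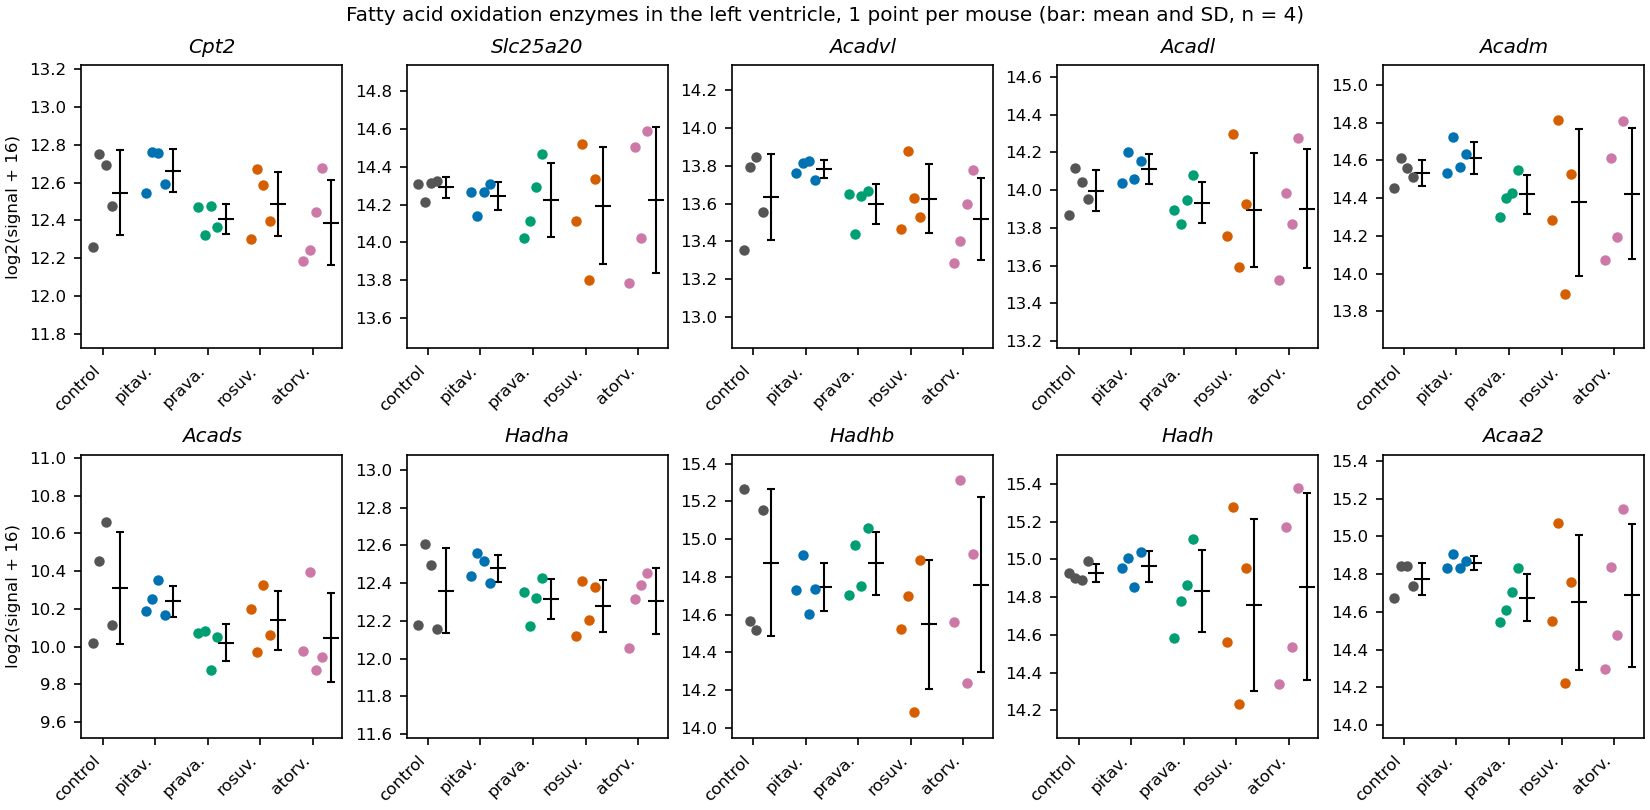
Log2(signal + 16) of the brightest probe set of each enzyme (1 panel each, each with its own y axis) for the 4 mice of each group, with the mean and SD. Every statin group overlaps the controls in every panel, and the SD of Hadh is 0.046 in control and 0.495 in atorvastatin mice.

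Mice of the rosuvastatin and atorvastatin groups lay far apart for many of the genes, and pitavastatin mice lay close together. The median SD of the 10 genes was 0.08 in pitavastatin, 0.11 in pravastatin, 0.17 in control, 0.31 in rosuvastatin and 0.33 in atorvastatin mice, whereas the median SD of all tested probe sets ran from 0.17 in pitavastatin to 0.25 in atorvastatin mice. The lowest of the 20 arrays was atorvastatin 1 for 5 genes, rosuvastatin 3 for 4 and pravastatin 3 for 1. Atorvastatin 1 and rosuvastatin 1 lay below the control mean for 10 of 10 genes, and atorvastatin 4 for 1 of 10. Averaged over the 10 genes, atorvastatin 1 lay at -0.42 and rosuvastatin 3 at -0.37 from the control mean, and atorvastatin 4 at 0.17 and rosuvastatin 2 at 0.14. The difference in spread between groups was not tested.

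**Figure D3:**
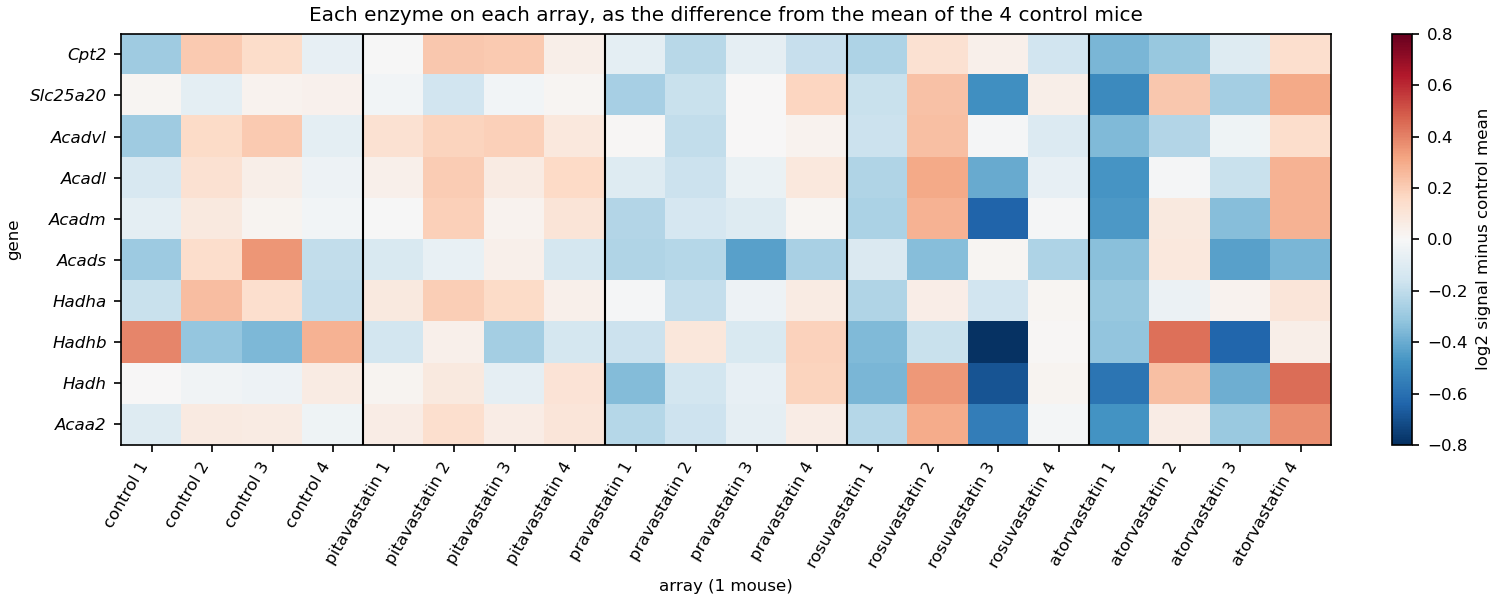
Deviation of each enzyme from its control mean (log2) on each of the 20 arrays (x axis, by group; genes on the y axis), in red above and in blue below that mean. Atorvastatin 1 and rosuvastatin 3 lie low for most enzymes, and atorvastatin 4 and rosuvastatin 2 lie high.

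Markers of heart muscle cells moved with these mice. All 15 listed cardiomyocyte markers were measured and none was at 0, and the log2 of their summed signal ran from 18.55 to 18.82 in control mice and from 18.67 to 18.87 with pitavastatin. It ran from 18.39 to 18.80 with pravastatin, from 18.04 to 19.03 with rosuvastatin and from 18.01 to 19.12 with atorvastatin. Atorvastatin 1 and rosuvastatin 3 had the lowest sums of all 20, and atorvastatin 4 and rosuvastatin 2 the highest. Against control, 4, 14, 15 and 15 of 15 cardiomyocyte markers lay lower in pitavastatin, pravastatin, rosuvastatin and atorvastatin mice (medians 0.12, -0.13, -0.15 and -0.13), none of them called. Of 9 measured markers each, fibroblast markers lay lower in 6, 8, 2 and 8, endothelial markers in 1, 4, 3 and 2, and macrophage markers in 3, 5, 3 and 6, in the same order. Of 4 measured ventricular markers, 1, 3, 2 and 3 lay lower, and of 7 measured smooth muscle and pericyte markers 1, 4, 2 and 3. Of 3 measured atrial markers, 0, 2, 0 and 2 lay lower (medians 0.37, -0.17, 0.35 and -0.18). The part of these cell types in the values of the oxidation enzymes was not tested.

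The brightness of an array also moved with some of the genes. Over the 20 arrays and 10 relations, each tested by permutation with 100000 resamples, Pearson r between a gene and the log2 median signal of the array was 0.81 for Hadhb (adjusted p = 1e-04, from a raw p of 1e-05, the smallest these permutations can give; Spearman rho 0.80, adjusted p = 9e-04), 0.72 for Hadh (adjusted p = 0.0017; rho 0.68, adjusted p = 0.00645), and 0.71 for Slc25a20 (adjusted p = 0.0019; rho 0.60, adjusted p = 0.0217). In all, 5 of 10 relations passed an adjusted p of 0.05 by Pearson r (these and Acadm and Acaa2) and 3 by rho. The share of all tested probe sets that would pass was not computed. A gene's value and the array median share 1 array and its scaling, so these p values do not set the genes apart from others. Without atorvastatin 2 and rosuvastatin 3, the brightest and dimmest arrays, r was 0.65 for Hadhb, 0.58 for Hadh and 0.55 for Slc25a20. For Cpt2, Acadvl, Acads and Hadha r lay between -0.17 and 0.15. When the log2 median signal entered the model as a covariate, 3, 9, 4 and 10 of the 10 genes lay lower in pitavastatin, pravastatin, rosuvastatin and atorvastatin mice, and the members' median in rosuvastatin mice was 0.01. The labels name no batch, so no within-batch value could be given.

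Across the 20 arrays some of the 10 genes followed each other closely and others did not. This is described by Pearson r with no test, because all values of a mouse share 1 array and its scaling. Over the 45 pairs of brightest probe sets r ran from -0.33 (Cpt2 and Hadhb) to 0.99 (Acadm and Acaa2), with a median of 0.54 and 6 pairs below 0. Slc25a20 and Hadh had an r of 0.95 and Cpt2 and Acadvl one of 0.94. The r of Acads with the other members ran from -0.14 to 0.39. Acadm and Acaa2 were lowest on rosuvastatin 3, and Cpt2 and Acadvl on atorvastatin 1.

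**Figure D4:**
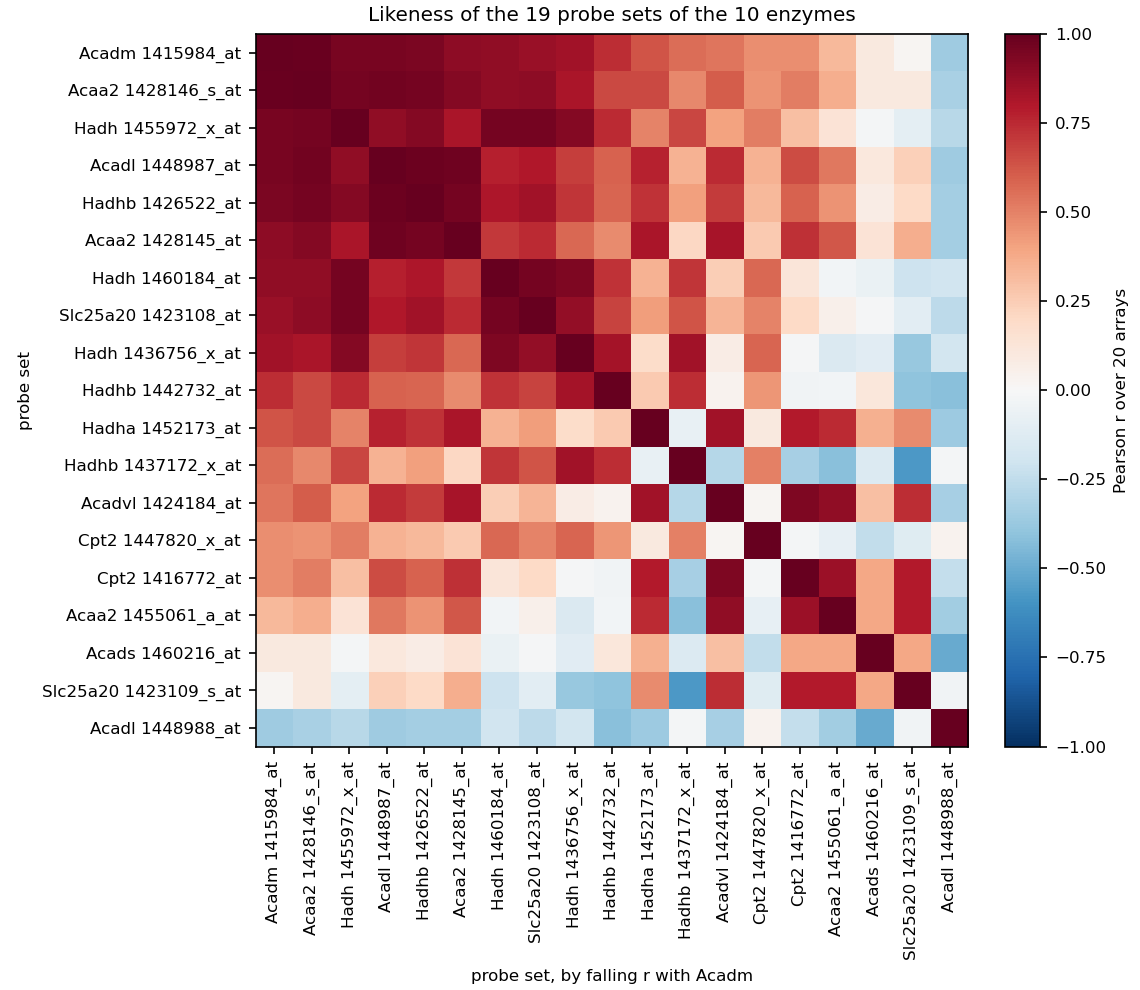
Pearson r over 20 arrays between the 19 probe sets of the 10 enzymes (both axes), ordered by falling r with Acadm, with red for r above 0 and blue for r below 0. The r of the brightest probe sets of Acadm and Acaa2 is 0.99, and that of Cpt2 and Hadhb is -0.33.

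Probe sets of the same gene did not always follow each other. Over the 12 such pairs r ran from -0.36 to 0.96 with a median of 0.60, and 3 lay below 0, against -0.57 to 0.99 with a median of 0.45 for the 159 pairs of probe sets of different members. The pairs below 0 were those of Slc25a20 (-0.11), Cpt2 (-0.02) and Acadl (-0.36), where the dimmer probe set of Acadl read 7.16, 6.72, 6.45 and 6.91 in control mice. The dimmer probe set of Slc25a20, whose suffix s marks probes shared by several transcripts, read 11.86, 12.21, 12.33 and 12.05 in control mice, low in mouse 1 where the brighter one was not, and had an r of 0.79 with Cpt2. The dimmest probe set of Acaa2, with 11.30, 12.23, 12.16 and 11.69 in control mice, had an r of 0.89 with Acadvl. The brightest probe set of Acaa2 also has the suffix s. For Hadh all 3 pairs lay at 0.92 or above.

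Over all 19 probe sets, 8, 18, 18 and 18 lay below control in pitavastatin, pravastatin, rosuvastatin and atorvastatin mice. The dim second probe set of Cpt2 had the largest difference. It read 7.87, 7.50, 7.19 and 7.69 in control and 5.34, 7.37, 4.98 and 7.29 in rosuvastatin mice, and in the latter mice 1 and 3 were low while mice 2 and 4 lay within the control range. The log2 fold change was -1.32 (SE 0.51, 95% interval -2.38 to -0.26, limma unadjusted p = 0.0170, adjusted p = 0.452). On the brighter probe set of Cpt2 those 2 mice read 12.30 and 12.59, within the control range. The dimmest probe set of Hadhb read 7.81, 8.58, 6.58 and 8.10 with rosuvastatin against 8.59, 8.49, 8.21 and 8.80 in control mice.

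**Figure D5:**
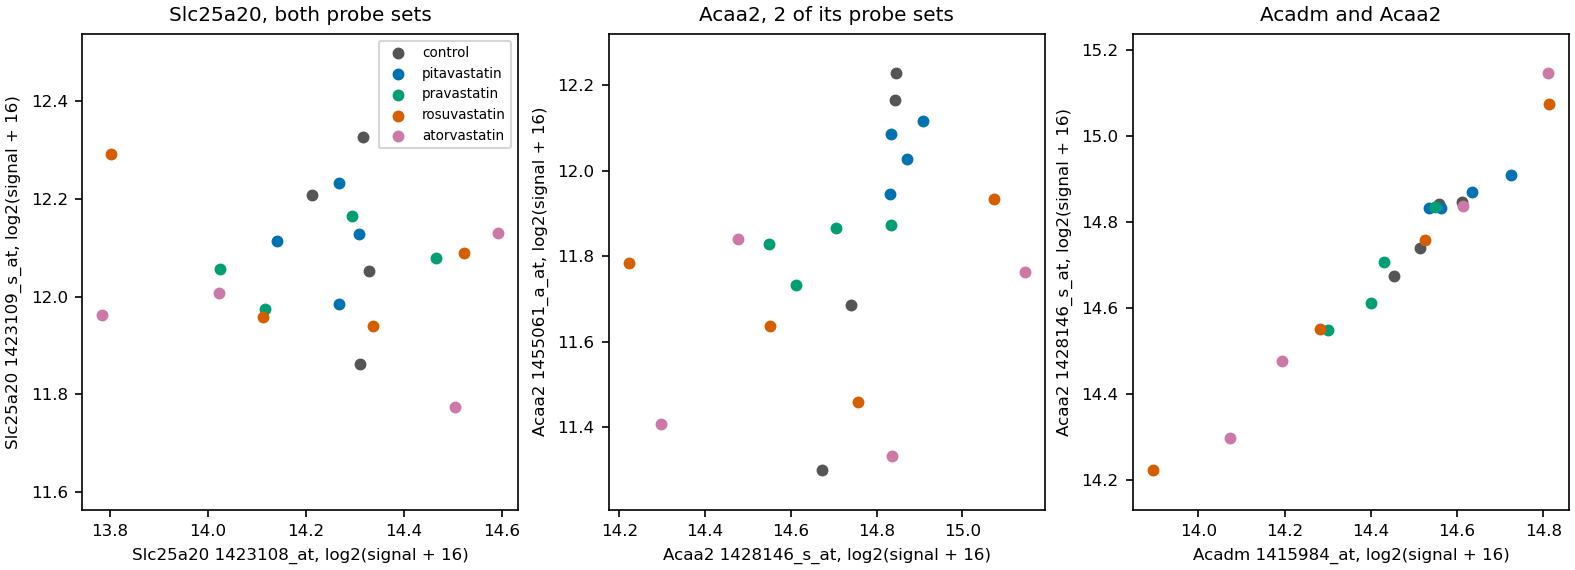
Log2(signal + 16) on the 20 arrays of both probe sets of Slc25a20 (r = -0.11), of a pair of probe sets of Acaa2 (r = 0.36) and of Acadm against Acaa2 (r = 0.99), coloured by group. Different genes lie closer to a line than probe sets of the same gene do in these examples, which were chosen after the values were seen.

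The genes most like the mean of the 10 members over the 20 arrays were Csrp3 (r = 0.98), a muscle LIM protein of the sarcomere, Ndufa3 (0.98), a subunit of respiratory complex I, Rps28 (0.97), a ribosomal protein, Cox5a (0.97), a subunit of cytochrome c oxidase, and Tnnt2 (0.97), cardiac troponin T. Within groups r was 0.98 to 0.99 for these 5. The mean itself was 13.63 ± 0.08 (SD, n = 4) in control mice. It was 13.67 ± 0.04, 13.53 ± 0.09, 13.50 ± 0.22 and 13.51 ± 0.27 in pitavastatin, pravastatin, rosuvastatin and atorvastatin mice (SD, n = 4 each).

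The other genes of the pathway showed no called difference either, at 0% of all tested probe sets called in each comparison. The list of 14 electron transfer and auxiliary oxidation enzymes holds some that hand electrons to the respiratory chain or process unusual chains, and others such as the hydratase Echs1. Of these 14 enzymes, 4, 9, 11 and 13 lay lower in pitavastatin, pravastatin, rosuvastatin and atorvastatin mice (medians 0.13, -0.07, -0.03 and -0.10). Their ends were Acad10 (-0.22) and Acot2 (-0.07) against Eci2 (0.20) and Etfb (0.24) with pitavastatin, and Echs1 (-0.20) and Etfa (-0.14) against Decr1 (0.02) and Etfdh (0.04) with pravastatin. With rosuvastatin they were Acad10 (-0.27) and Acot2 (-0.21) against Acad11 (0.09) and Eci2 (0.20), and with atorvastatin Echs1 (-0.30) and Etfa (-0.20) against Acot2 (-0.02) and Hsd17b10 (0.05). Echs1, the short-chain hydratase, had an SE of 0.14 and an unadjusted p of 0.0495 with atorvastatin (limma adjusted p = 0.964). Over the mean of the 4 statins the ends were Acad10 (-0.20) and Acot2 (-0.11) against Hsd17b10 (0.05) and Eci2 (0.08).

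Of the genes for fatty acid uptake, activation and carnitine entry, 14 of 17 were measured, and 7, 10, 9 and 9 lay lower in the same order (medians -0.001, -0.06, -0.06 and -0.03). With pitavastatin the ends were Acaca (-0.23) and Acacb (-0.16), the acetyl-CoA carboxylases, against Acsl5 (0.11) and Fabp3 (0.13), an acyl-CoA synthetase and the heart fatty acid binding protein. With pravastatin they were Mlycd (-0.24), malonyl-CoA decarboxylase, and Crat (-0.18), carnitine acetyltransferase, against Acsl4 (0.11) and Acsl3 (0.13). With rosuvastatin they were Acaca (-0.21) and Fabp3 (-0.18) against Acsl5 (0.15) and Cpt1a (0.21), and with atorvastatin Crat (-0.20) and Mlycd (-0.17) against Acsl4 (0.13) and Cpt1a (0.48). Cpt1a, the liver form of the outer membrane carnitine transferase, had an SE of 0.22 there (unadjusted p = 0.0414, limma adjusted p = 0.964). Over the mean of the 4 statins they were Acaca (-0.16) and Mlycd (-0.12) against Slc22a5 (0.08) and Cpt1a (0.14).

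Of the 16 listed regulators of fatty acid oxidation 15 were measured, and 6, 8, 7 and 8 lay lower (medians 0.03, -0.01, 0.0004 and -0.02). The retinoid X receptor gene Rxrb, whose product pairs with the PPAR receptors, was at or near the low end throughout (-0.27, -0.31, -0.16 and -0.36 with pitavastatin, pravastatin, rosuvastatin and atorvastatin). Beside it the second lowest were Ppargc1a (-0.17) with pitavastatin and Pparg (-0.21) with pravastatin, and Rxrg lay at -0.17 with rosuvastatin and -0.24 with atorvastatin. The receptor gene Ppard was the highest in the first 3 groups (0.40, 0.26 and 0.37), followed by Klf15 (0.20), Ppara (0.11) and Rxra (0.17) in that order, and with atorvastatin Klf15 and Ppargc1b were highest (0.13 each). Over the mean of the 4 statins the ends were Rxrb (-0.28) and Rxrg (-0.11) against Klf15 (0.09) and Ppard (0.25), none of them called.

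Downstream of the pathway, 2, 27, 26 and 29 of 29 respiratory chain genes (medians 0.10, -0.12, -0.15 and -0.13) and 1, 10, 11 and 12 of 13 tricarboxylic acid cycle genes (medians 0.09, -0.08, -0.10 and -0.09) lay below control in the same order, of 30 and 14 listed. Peroxisomal oxidation genes, which shorten very long chains outside mitochondria, lay lower in 7, 7, 7 and 6 of 9 measured (13 listed; medians -0.08, -0.07, -0.04 and -0.08). Of 10 other PPAR alpha target genes measured (13 listed), 7, 10, 8 and 3 lay lower (medians -0.09, -0.19, -0.17 and 0.09), and none of the lists held a called gene in any comparison.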

How the data were processed

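Left ventricle RNA of 20 mice was amplified from 100 ng and hybridised to Affymetrix mouse arrays, 1 per mouse, per the labels. The deposited values are MAS5 signal intensities made by the authors, as the submitters' processing notes record without a version. Their scaling gave every array a trimmed mean of 500.0 (2% removed at each end), which leaves array medians free to differ. No 2 arrays were identical.

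The 64 control probe sets were left out, 16 was added and log2 taken, which understates changes of dim probe sets. The brighter 50% of 45037 probe sets by mean (signal over 81.8) were tested: 22518. Of all probe sets 34945 had 1 symbol, 932 several and 9160 none; 34741 identifiers matched the RefSeq gene table. Each gene was taken by its brightest probe set.

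Limma 3.58.1 in R 4.3.3 fitted 1 mean per group with empirical Bayes moderation and a trend, adjusting p values by Benjamini-Hochberg over the 22518 probe sets per comparison (each statin, their mean and an F test; calls at 0.05). The procedure was tested on simulated data. Statin pairs were not tested, since doses differ. The members, lists and rules were chosen with earlier results of these data known. Every member is named in every comparison; from the 3 fatty acid lists, the 2 highest and 2 lowest values; and the 5 most similar genes by r. Alternatives were quantile normalization, median centring, other pseudocounts and filters, the mean of all probe sets of a gene, 1 probe set per gene, only the groups compared, no trend, array weights, a replicate block, the median signal as a covariate, and leaving out each array.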

Additional observations from a re-analysis of the deposited data

Results flagged for a closer look

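In 4 of 95 groups of 4 mice, a probe set had 1 mouse set apart from the other 3 by Dixon's criterion, which chance gives in about 1 of 20 groups. The dim second probe set of Cpt2 read 5.61 in pitavastatin 2, where the nearest mouse read 7.20. Slc25a20 read 14.21 in control 2, with the nearest at 14.31. Acadvl read 13.44 in pravastatin 2, with the nearest at 13.64. Acads read 9.87 in pravastatin 3, with the nearest at 10.05, and pravastatin 3 was the lowest of all 20 mice for it.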

How the results depend on the processing

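No member was called against control among the 1690 values recomputed under the other settings, where the smallest adjusted p was 0.174. Those for the mean of all probe sets of a gene had no p value and could not be called. In 117 of the 1690 values the sign differed from that reported, and 15 moved by over 1 SD. Many of the 1690 could not move, so the share is higher among those that could. No filter, the brighter 30%, no trend, 1 probe set per gene, the replicate block and only the groups compared keep the members' fold changes. Leaving out an array of another statin group also keeps the fold change of a single statin. The members' median in rosuvastatin mice was 0.27 with arrays centred on their median. Over all genes, the F test called 1 probe set, and called 0 with arrays centred on their median, 0 with no trend, 0 with 1 probe set per gene, 3 with the brighter 30% of probe sets, 185 with array weights, 5 with the median signal as a covariate and 2 without rosuvastatin 3 and atorvastatin 2. Pravastatin calls went from 0 to 5 with the brighter 30%, 16 with array weights and 6 with the covariate; array weights gave 12 for rosuvastatin and 2 for the mean of the statins. With the replicate block the F test called 6. Same-numbered mice were not paired in the reported model. The correlation of their deviations was -0.54 to 0.69 (mean 0.13 over 40 pairs, 19 of them over 0.1). For mice of different numbers it was -0.76 to 0.74 (mean -0.05 over 120 pairs, 46 of them over 0.1). Leaving out 1 array gave 0 to 23 calls for pravastatin, 0 to 17 for rosuvastatin, 0 to 18 for atorvastatin, 0 to 9 for the mean of the statins and 0 to 49 for the F test, each highest without control 1, and 0 for pitavastatin. The members' medians were then 0.04 to 0.11 with pitavastatin, -0.14 to -0.06 with pravastatin, -0.22 (without rosuvastatin 2) to -0.01 (without rosuvastatin 3), -0.22 (without atorvastatin 4) to 0.02 (without atorvastatin 1) and -0.10 to -0.03 for the mean of the statins. The cause of these changes was not tested. The number of arrays limits the precision.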
